A study of Mus musculus with 8 samples.

Results

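The 9 genes described here are Olig1, Olig2, Sox10, Pdgfra, Cspg4, Gpr17, Ugt8a, Mbp and Cnp, a set of mouse genes used to follow the oligodendrocyte lineage. They were taken by symbol from a table of 27179 genes counted in 8 neurosphere cultures, and all 9 were found. Of these, 7 passed the filter on low counts and were tested among 13498 genes. Sox10 and Mbp did not pass it. Neurospheres are floating clusters grown from dividing neural stem and progenitor cells, here from C57BL/6 mouse fetuses at mid-gestation (E14.5) and kept in proliferation medium. In 4 cultures, the Kat7 deleted group, the fetus was Kat7lox/lox and NesCreT/+. The other 4, the Kat7 intact group, came from Kat7+/+ fetuses that also carried NesCreT/+, so both groups had the Cre transgene. The Cre is named for Nestin, an intermediate filament gene active in neural precursors. Kat7 encodes a histone acetyltransferase also called HBO1, and the comparison asks what its loss does to gene expression in these cells.

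Oligodendrocytes make the myelin that insulates axons. They arise from neural progenitors through precursor cells that carry the transcription factors OLIG1, OLIG2 and SOX10, the growth factor receptor PDGFRA and the proteoglycan NG2, which Cspg4 encodes. Precursors that commit to differentiation pass through a GPR17-positive stage, then switch on lipid enzymes such as UGT8A and structural myelin proteins such as MBP. OLIG2 also marks dividing progenitors that have not chosen this fate, and it is common in cultured neurospheres.

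In the Kat7 deleted cultures Ugt8a and Gpr17 fell, 20.1-fold and 8.76-fold on mean level, while no call was made for the 5 other tested members. Olig1 and Olig2, the most abundant members, kept high levels in deleted replicates 1 and 3 and lay lower in deleted replicates 2 and 4. Among the deleted cultures Pdgfra was the most variable tested member, and its direction depended on a single library and on the fit used. Mbp was close to absent from all 8 cultures.

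Sequences just upstream of an annotated start are shown for the called member with an entry in the RefSeq promoter table of GRCm38.p6, Ugt8a, and for a pair that behaved differently, Olig2 and Pdgfra. In all, 5 of the 9 members had an entry. Each line gives the 250 bases before the start that the promoter table uses, which for Pdgfra and Ugt8a lies inside the gene bounds given further on, read 5′ to 3′ on the gene's own strand, and capitals mark matches to the motifs searched. The windows are chr3:125938653-125938902 on the minus strand for Ugt8a, chr16:91225300-91225549 on the plus strand for Olig2 and chr5:75152001-75152250 on the plus strand for Pdgfra.
Ugt8a: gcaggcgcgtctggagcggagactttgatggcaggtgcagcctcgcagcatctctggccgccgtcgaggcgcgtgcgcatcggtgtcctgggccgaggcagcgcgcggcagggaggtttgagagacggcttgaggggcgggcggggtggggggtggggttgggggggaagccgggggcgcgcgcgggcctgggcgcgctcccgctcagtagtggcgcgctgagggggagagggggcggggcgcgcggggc
Olig2: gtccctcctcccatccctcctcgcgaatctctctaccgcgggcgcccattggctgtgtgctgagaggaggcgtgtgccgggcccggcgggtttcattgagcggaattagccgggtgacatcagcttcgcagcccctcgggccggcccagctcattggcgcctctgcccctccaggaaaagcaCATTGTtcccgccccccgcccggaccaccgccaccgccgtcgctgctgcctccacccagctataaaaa
Pdgfra: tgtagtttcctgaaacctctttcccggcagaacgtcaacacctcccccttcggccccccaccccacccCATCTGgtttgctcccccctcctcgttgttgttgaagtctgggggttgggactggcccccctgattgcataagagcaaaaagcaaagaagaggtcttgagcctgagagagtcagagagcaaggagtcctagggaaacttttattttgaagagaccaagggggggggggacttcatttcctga

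Motifs were searched on both strands, first E-boxes, a type of site that basic helix-loop-helix factors such as OLIG2 bind. Of 32851 promoter windows of the same length, 13.0% held the E-box CAGCTG. Another E-box form, CATATG, was in 3.46% of them, and the form CATCTG was in 14.4%. Of the SOX core motifs, 16.5% of windows held ACAAAG and 10.7% held ACAATG. No motif equals a different one of the 5 or its reverse complement. The Ugt8a window held none of these letters. It was 76.8% G and C with 32 CG dinucleotides, against medians of 52.4% and 6 over all windows. The Olig2 window held CATTGT, the reverse complement of ACAATG, and was 66.8% G and C with 22 CG dinucleotides. The Pdgfra window held CATCTG and had 4 CG dinucleotides. These matches describe the letters and say nothing of binding in the cultures.

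The deposited values were raw counts, with library totals of 10687817 to 22444359, and levels are given in CPM, which sets each library to the same size after TMM scaling. There were 3 litters per genotype and none shared, so no comparison within a litter could be made. Kat7 was at 77.1 to 92.1 CPM in the intact cultures, while deleted replicates 1 to 4 retained 26.4, 0.367, 13.9 and 0.087 CPM. Its log2 fold change was -3.02 (edgeR adjusted p = 0.128). Nes, Sox2, Vim, Pax6, Prom1, Msi1, Fabp7 and Hes5, markers of neural stem and progenitor cells, summed to 5010 to 6082 CPM in intact and 3586 to 5704 CPM in deleted cultures. Markers of microglia reached at most 3.59 CPM in sum. In intact cultures nearly all of it was P2ry12, at 2.49 to 3.41 CPM there and 0 to 2.09 CPM in deleted cultures (edgeR adjusted p = 0.205). The other microglia markers had 0 to 4 reads a library. The mitochondrial genome took 19.0% to 23.5% of counts in intact cultures and 29.9%, 19.0%, 17.1% and 34.4% in deleted replicates 1 to 4. These are bulk cultures, in which fewer cells of a type and less RNA per cell cannot be told apart.

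Levels of different members can be set side by side only per length, as CPM per kilobase of gene model. In intact cultures the order on that scale was Olig1 (407 ± 57.6, SD, n = 4), Olig2 (232 ± 19.5), Cnp (22.3 ± 1.56), Cspg4 (7.40 ± 2.88), Ugt8a (1.58 ± 0.618), Pdgfra (1.21 ± 0.508), Gpr17 (0.516 ± 0.257), Sox10 (0.110 ± 0.113) and Mbp (0.0241 ± 0.0204). Olig1 and Olig2 stood above 99.5% and 99.0% of tested genes in level per kilobase. The ranges of neighbours overlapped for Ugt8a with Pdgfra, Gpr17 with Sox10 and Sox10 with Mbp, and for no other neighbours. In deleted cultures the 4 highest kept their places, at 313 ± 178, 179 ± 83.3, 21.2 ± 6.84 and 5.68 ± 2.65 CPM per kilobase. Pdgfra (2.79 ± 4.08) and Sox10 (0.285 ± 0.307) then stood above Ugt8a (0.0786 ± 0.083), Gpr17 (0.0589 ± 0.0572) and Mbp (0.0198 ± 0.00843). There the ranges of neighbours overlapped except between Olig2 and Cnp and between Cnp and Cspg4.

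**Figure D1:**
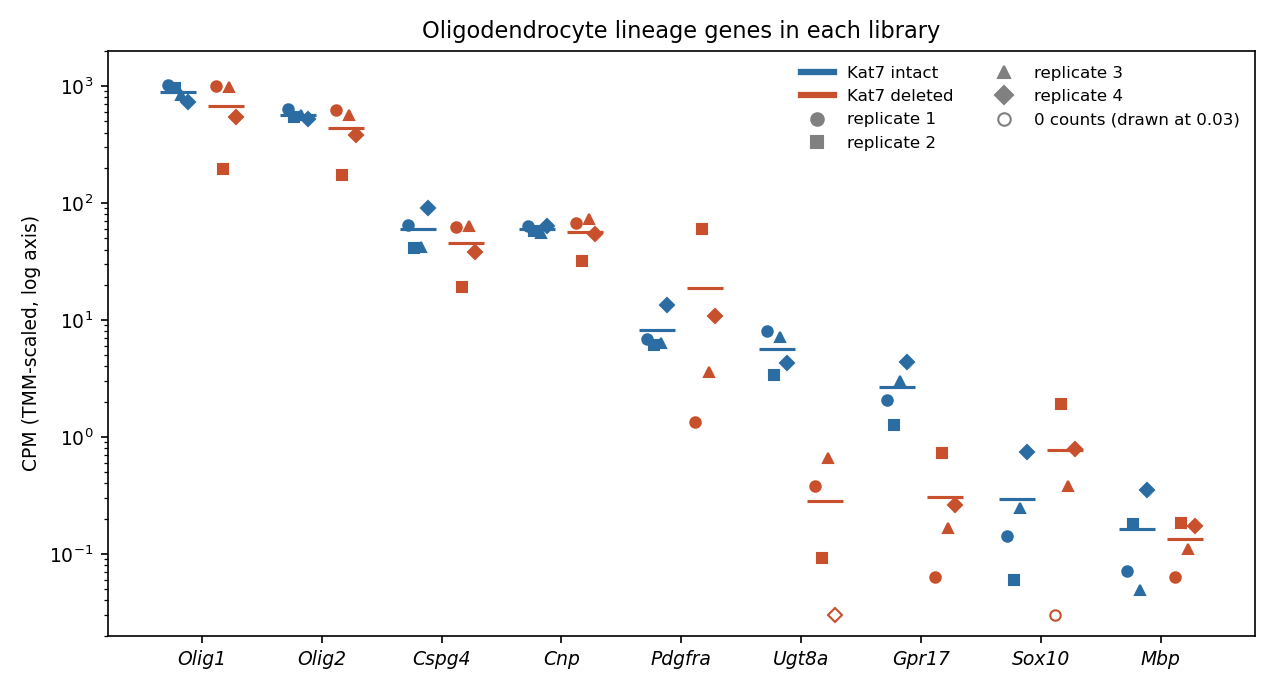
CPM of each of the 9 members in each library on a log axis, blue for Kat7 intact and orange for Kat7 deleted, with a marker shape per replicate and a line at the mean of 4 libraries. Open markers are libraries with 0 counts, drawn at 0.03. The genotypes are apart for Ugt8a and Gpr17 and overlap for the other members.

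Ugt8a (Entrez 22239, chromosome 3, 125865272 to 125938682 in GRCm38) encodes the galactosyltransferase that makes galactosylceramide, a main lipid of myelin. Intact replicates 1 to 4 held 7.98, 3.35, 7.14 and 4.27 CPM, and deleted replicates 1 to 4 held 0.38, 0.0918, 0.659 and 0 CPM. Every deleted culture lay below every intact one, and the highest deleted value came from 12 reads against 56 in the lowest intact library. Deleted replicate 4 had 0 reads, which allows up to 0.261 CPM (3 counts, counting error only). The means were 5.69 ± 2.22 and 0.283 ± 0.299 CPM (SD, n = 4). The quasi-likelihood test of edgeR gave a log2 fold change, deleted minus intact, of -4.17 ± 0.72 (approximate SE) and a Benjamini-Hochberg adjusted p of 0.015 over all tested genes. Without intact replicate 1, 3 or 4 the adjusted p rose to 0.0533, 0.0546 and 0.0524, with log2 fold changes of -3.98, -4.05 and -4.31. Without deleted replicates 1 and 3 together the fitted value was -6.76 (adjusted p = 0.00307), with a single read left in the deleted group. The call was made in 21 of 24 settings, and the value was below 0 in all 24.

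Gpr17 (Entrez 574402, chromosome 18) encodes a G protein-coupled receptor that is transiently present on committed precursors and limits their maturation. Its levels were 2.07, 1.26, 3.03 and 4.36 CPM in intact replicates 1 to 4 and 0.0634, 0.734, 0.165 and 0.261 CPM in deleted replicates 1 to 4. The genotypes did not overlap, and deleted replicate 2, with 8 reads, came closest to the intact cultures. Deleted replicates 1, 3 and 4 held 1, 3 and 3 reads, with exact 95% Poisson intervals of 0.0253 to 5.57 for 1 read and 0.619 to 8.77 for 3 reads. The log2 fold change was -3.21 ± 0.67 by edgeR (adjusted p = 0.0278), from 2.68 ± 1.34 to 0.306 ± 0.297 CPM. The call rested on few reads and was made in 12 of 24 settings, all with a value below 0. The log2 fold change was -4.05 (edgeR adjusted p = 0.0104) without deleted replicate 2. Without deleted replicates 1 and 3 it was -2.43 and not called (0.0544). The call was lost without any 1 of the intact libraries (adjusted p from 0.059 to 0.0869) and without deleted replicate 3 or 4 (0.0649 and 0.0562). It was also lost with litter as a random block (0.0505), with littermates summed (0.101) and with replicate number as a block (0.0772). The same held with a variance per genotype in limma-voom (0.0952) and without the pair of deleted libraries highest in mitochondrial counts (0.0691).

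Both called members were lower, 2 of 7 tested, where 2.80% of all tested genes were called lower, 5.10% higher and 7.90% in all. Deleted lay below intact without overlap for the same 2 members and for 9.21% of all tested genes, and 19.9% did not overlap in either direction. The median log2 fold change of the 7 was -0.38 and that of all tested genes was 0.05. Of the 7, 6 were fitted below 0 and 1 above.

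Markers of other cell types also differed between the genotypes in which Ugt8a and Gpr17 fell. Of 9 astrocyte markers, all tested, edgeR called 2 higher and 0 lower, against 5.10% and 2.80% of all tested genes. Aqp4, a water channel gene, rose from 0.916 to 1.91 CPM over the intact cultures to 11.4 to 38.1 CPM over the deleted ones (4.24 ± 0.47, edgeR adjusted p = 0.00483). Aldoc, an aldolase gene, rose as well (3.34 ± 0.75, 0.0358). Gfap, the astrocyte intermediate filament gene, was higher without overlap and not called (6.34 ± 1.74, 0.0605). It was at 147 CPM in deleted replicate 1 and 1.38 to 8.07 CPM in deleted replicates 2 to 4. S100b, Slc1a3, Slc1a2, Slc4a4 and Aldh1l1 were fitted above 0 and Gja1 below (-0.19), none of them called. Slc1a2 was at 540 CPM in deleted replicate 1. In deleted replicates 2 to 4 it was at 5.32 to 26.8 CPM, below the intact 29.8 to 84.2 CPM. The 9 summed to 743 to 1628 CPM in intact cultures and to 5670, 556, 1410 and 1214 CPM in deleted replicates 1 to 4. Summed ependymal markers were at 9.39 to 12.4 CPM in intact and 18.1 to 35.3 CPM in deleted cultures. Most of it was Foxj1, a factor of motile cilia, which rose (1.21 ± 0.23, 0.0214). Ccdc153 was higher without overlap and not called (2.16 ± 0.59, 0.0579), with 5.91 CPM in deleted replicate 4. The 5 endothelial markers summed to 2.79 to 6.40 CPM in intact and 1.43 to 15.7 CPM in deleted cultures, and 2 were tested. Kdr, a VEGF receptor gene, fell (-3.45 ± 0.55, 0.0116), from 10 to 19 reads in intact to 0 to 2 in deleted libraries. Tek was fitted above 0 and not called (0.69 ± 0.86, 0.645), with 13.9 CPM in deleted replicate 2. Pecam1, not tested, was at 0.155 ± 0.135 CPM in intact and 0.866 ± 0.605 CPM in deleted cultures. Cdh5 and Cldn5 had 0 or 1 read in each library. The part of such cells in the levels of Ugt8a and Gpr17 was not tested.

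Olig1 (Entrez 50914, chromosome 16, 91269769 to 91271939) and Olig2 (Entrez 50913, chromosome 16, 91225550 to 91228677) encode sister basic helix-loop-helix factors, and the genes lie 41.1 kb apart. Olig2 is needed to specify the lineage and Olig1 acts mainly in maturation. Intact replicates 1 to 4 held 1012, 954, 834 and 732 CPM of Olig1, and deleted replicates 1 to 4 held 1002, 194, 981 and 542 CPM. Deleted replicates 1 and 3 lay inside the intact range, and deleted replicates 2 and 4 below it. Olig2 showed the same arrangement except that the intact cultures were closer together, at 630, 546, 565 and 518 CPM against 621, 172, 566 and 381 CPM in the deleted ones.

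Neither gene was called. Olig1 had a log2 fold change of -0.38 ± 0.44 (edgeR adjusted p = 0.622), and Olig2 had -0.38 ± 0.34 (0.522). Leaving out deleted replicate 2 brought these to -0.07 and -0.11. Without deleted replicates 1 and 3, the pair with the most Kat7 reads, they were -1.27 (adjusted p = 0.0704) and -1.03 (0.0589). Across the deleted cultures the SD of log2 CPM was 1.11 for Olig1 and 0.84 for Olig2, against 0.21 and 0.12 across the intact ones. The median gene had SDs of 0.38 and 0.17, and 86.6% of tested genes had the larger SD among deleted cultures. The counts of Olig1 per kilobase were 1.59 to 1.96 times those of Olig2 in intact cultures and 1.81, 1.26, 1.94 and 1.60 times in deleted replicates 1 to 4. The ratio in deleted replicate 2 was therefore the lowest of the 8, so Olig1 was further down there than Olig2.

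Cspg4 (Entrez 121021, chromosome 9, 56865104 to 56899870) encodes NG2, a transmembrane proteoglycan of oligodendrocyte precursors and of pericytes. Its levels in intact replicates 1 to 4 were 65.1, 41.0, 42.1 and 90.1 CPM, and those in deleted replicates 1 to 4 were 62.3, 19.1, 63.7 and 38.0 CPM. As for the Olig genes, deleted replicate 2 was lowest and deleted replicate 4 next, but intact replicates 2 and 3 lay close to deleted replicate 4. The log2 fold change was -0.38 ± 0.40 (edgeR adjusted p = 0.587), and -0.12 without deleted replicate 2 or -0.13 without intact replicate 4. Without deleted replicates 1 and 3 it was -1.06 and not called (0.13).

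Cnp (Entrez 12799, chromosome 11, 100574909 to 100591875) encodes a phosphodiesterase of non-compact myelin and is transcribed before myelin forms and in other cells too. Its levels were 63.5, 57.5, 55.1 and 63.2 CPM in intact cultures and 67.6, 32.0, 73.1 and 54.1 CPM in deleted ones. Deleted replicates 1 and 3 lay above all intact cultures and deleted replicates 2 and 4 below them. The means of 59.8 ± 4.19 and 56.7 ± 18.3 CPM gave a log2 fold change of -0.08 ± 0.23 (edgeR adjusted p = 0.865), which turned to 0.12 without deleted replicate 2. Measured against Cnp in the same library, Ugt8a was at 0.0434 to 0.0964 of its counts per kilobase in intact cultures and at 0 to 0.0067 in deleted ones.

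**Figure D2:**
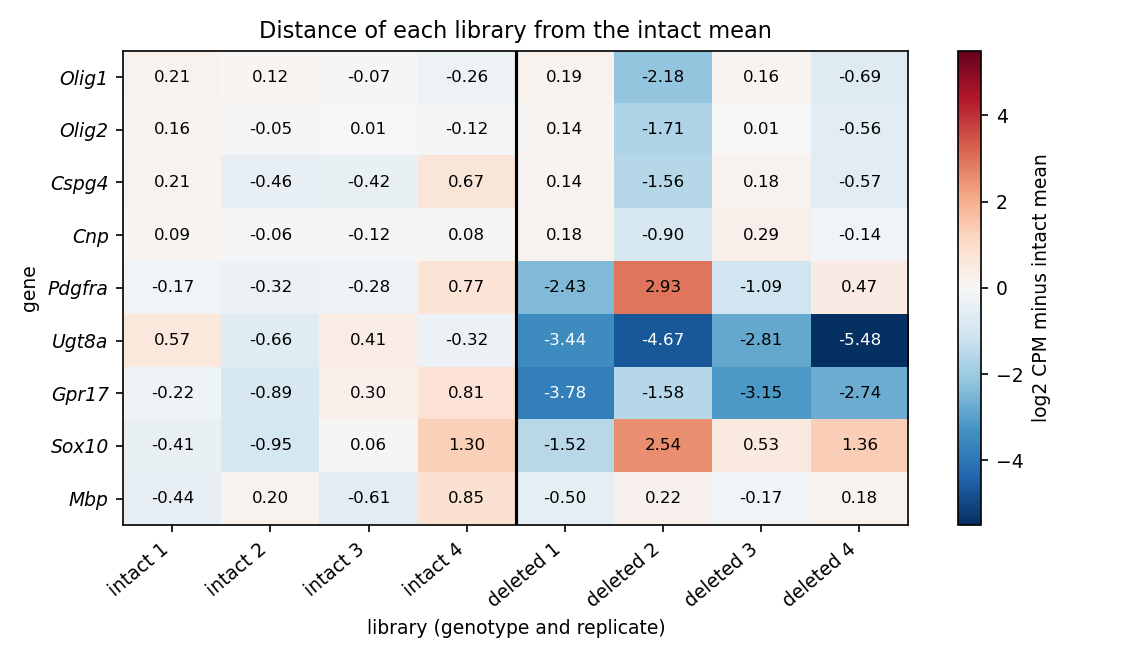
Each cell gives log2 CPM (prior count 2) of a member in a library minus the mean of the 4 intact libraries, with members in rows and libraries in columns, red above and blue below that mean. Ugt8a and Gpr17 are at -1.58 or lower in all 4 deleted libraries, while Olig1, Olig2 and Cspg4 are near 0 in deleted replicates 1 and 3 and between -2.18 and -0.56 in replicates 2 and 4.

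Pdgfra (Entrez 18595, chromosome 5, 75151322 to 75198206) encodes the receptor through which PDGF-AA keeps precursors dividing, and it is also present on fibroblasts. Intact replicates 1 to 4 held 6.84, 6.16, 6.31 and 13.3 CPM, and deleted replicates 1 to 4 held 1.33, 59.6, 3.57 and 10.7 CPM. Of the deleted cultures, replicates 1 and 3 lay below all intact ones, replicate 4 within their range and replicate 2 above it. The order of the deleted cultures was thus the opposite of that for Olig1, with replicate 2 highest and replicate 1 lowest. The log2 fold change was 1.19 ± 0.99 (edgeR adjusted p = 0.477), and -0.67 (0.499) without deleted replicate 2. Without deleted replicates 1 and 3 it was 2.1 and not called (0.0575). The SD of log2 CPM among deleted cultures, 2.30, was larger than that of 98.2% of tested genes.

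Some of the markers of pericytes, mural cells and fibroblasts were high together with Pdgfra in deleted replicate 2. The 12 markers listed for them summed to 1.91 to 2.79 CPM in intact cultures and to 3.42, 613, 8.51 and 112 CPM in deleted replicates 1 to 4. In deleted replicate 2 the sum was mostly the collagen gene Col3a1 (334 CPM), the smooth muscle actin gene Acta2 (191 CPM) and the matrix proteoglycan gene Dcn (84.1 CPM), while Pdgfrb, Rgs5, Kcnj8, Abcc9 and Lum had 0 reads there. Tagln was at 0.918 CPM in deleted replicate 2, within its intact range of 0.342 to 1.13 CPM. In deleted replicate 4 Acta2 alone gave 107 CPM. Of the 12 markers, 2 were tested. Acta2 was called higher (6.67 ± 1.45, edgeR adjusted p = 0.0322), as were 5.10% of all tested genes. Tagln was not called (1.0 ± 0.55, 0.28). The part of such cells in the Pdgfra level was not tested. Per kilobase, Pdgfra counts were 0.126 to 0.180 times those of Cspg4 in intact cultures and 0.0256, 3.73, 0.067 and 0.336 times in deleted replicates 1 to 4. In deleted replicate 2 alone Pdgfra exceeded Cspg4 on that scale.

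Sox10 (Entrez 20665, chromosome 15, 79154913 to 79164490) encodes the factor that activates myelin genes and is the member most specific to the lineage within the brain, though neural crest and Schwann cells have it too. It was at the edge of detection, with 2, 1, 5 and 17 reads in intact replicates 1 to 4 and 0, 21, 7 and 9 reads in deleted replicates 1 to 4. The genotypes overlapped, and the most reads came from deleted replicate 2 (1.93 CPM) and the fewest from deleted replicate 1, where 0 reads allow up to 0.190 CPM. Without the filter on low counts edgeR gave a log2 fold change of 1.22 (adjusted p = 0.543), in a fit that called 3.75% of 22195 genes. The 7 markers of Schwann cells and neural crest summed to 10.1 to 42.6 CPM in intact and 5.82 to 12.6 CPM in deleted cultures, most of it Egr2, an immediate early gene as well. Foxd3, a neural crest factor, had 0 reads in all 8 libraries.

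Mbp, the myelin basic protein gene on chromosome 18, had 1, 3, 1 and 8 reads in intact and 1, 2, 2 and 2 reads in deleted replicates. No genotype stood out, and the unfiltered edgeR fit gave -0.41 (adjusted p = 0.796). At 1 to 8 reads a library, a difference of ordinary size was not detectable at this depth.

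The wider lineage was described with a list of 62 genes that includes the 9 members, all of them in the table and 42 tested. Of the 42, 3 were called higher and 4 lower, against 5.10% and 2.80% of all tested genes, and their median log2 fold change was 0.05, the same as over all genes. Leaving out the members, 3 of 35 were called higher and 2 lower, with a median of 0.10. The count of 7 was not steady, as it was 0 without intact replicate 1 or 4, 1 without intact replicate 2, 2 without intact replicate 3 and 9 at most with a single library left out. Without deleted replicates 1 and 3 it was 15 of 43, 3 higher and 12 lower. In that fit 1160 of 13797 genes were called higher and 1139 lower.

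Of the genes of specification and the precursor stage, 12 were tested and 0 called by edgeR, against 7.90% of all tested genes. DESeq2 called 2 of them, Lhfpl3 and C1ql1, and 16.3% of all tested genes. In the edgeR fit C1ql1, Pdgfra and Nkx2-2 were fitted above 0. Lhfpl3, a gene of oligodendrocyte precursors in mouse, C1ql1, a secreted C1q-like protein gene, and Sox6, listed among the inhibitors of differentiation, were picked out after their values were seen. C1ql1 was at 0.361 ± 0.172 CPM in intact and 1.18 ± 0.219 CPM in deleted cultures, with a log2 fold change of 1.67 ± 0.43 (edgeR adjusted p = 0.0501). Intact replicates 1 to 4 held 38.6, 29.5, 46.7 and 69.2 CPM of Lhfpl3 and deleted replicates 1 to 4 held 18.8, 7.44, 5.49 and 1.30 CPM, with a log2 fold change of -2.47 ± 0.65 (edgeR adjusted p = 0.0545). Sox6 ranged from 97.1 to 172 CPM over the intact cultures and from 24.3 to 87.1 CPM over the deleted ones, with a log2 fold change of -1.22 ± 0.35 (edgeR adjusted p = 0.0673). The genotypes did not overlap for Lhfpl3, C1ql1 or Sox6, as for 19.9% of all tested genes, and the edgeR fit called none of them. C1ql1 rested on few reads, 2 to 11 in the intact and 10 to 22 in the deleted libraries.

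Among committed and premyelinating genes 1 of 8 was called higher and 2 lower by edgeR, against 5.10% and 2.80% of all tested genes. DESeq2 called 4, Gpr17, Itpr2, Tns3 and Zfp488, beside 16.3% of all tested genes. Tns3 was not called by edgeR (-0.57 ± 0.19, adjusted p = 0.0993). Besides Gpr17, Zfp488 fell, a zinc finger repressor that works with OLIG2 in oligodendrocyte differentiation. It held 1.14, 1.02, 0.978 and 2.79 CPM in intact cultures and 0, 0, 0.165 and 0 CPM in deleted ones, where the 0.165 was 3 reads. A count of 0 allows up to 0.190, 0.275 and 0.261 CPM in deleted replicates 1, 2 and 4. The log2 fold change was -4.67 ± 0.86 (edgeR adjusted p = 0.0183), and without deleted replicate 3 the deleted group held 0 reads, so that the fitted -7.59 depends on the prior count. The call was lost without intact replicate 1, 2 or 4 (0.0529, 0.0568 and 0.0629) and with littermates summed (0.0631). Itpr2, an intracellular calcium channel gene used as a marker of committing precursors in mouse, rose from 62.5 ± 3.30 to 126 ± 47.9 CPM (1.02 ± 0.24, adjusted p = 0.0388). It lost its call without any 1 of the intact libraries, at up to 0.122, and with total-count scaling (0.0779). The same held with litter as a random block (0.056) and with littermates summed (0.101). The call was also lost without the pair of deleted libraries highest in mitochondrial counts (0.0556).

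Among the 4 tested myelin lipid enzymes Ugt8a was the sole call, where 7.90% of all tested genes were called. Cers2, a ceramide synthase gene and the most abundant of them, stood at 133 ± 5.85 and 139 ± 9.63 CPM, with a log2 fold change of 0.07 ± 0.10 (edgeR adjusted p = 0.715).

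Among receptors and ligands, Erbb4, a neuregulin receptor gene that neurons and interneuron precursors share, fell from 8.76 ± 1.66 to 0.745 ± 0.692 CPM (-3.54 ± 0.74, edgeR adjusted p = 0.0283). Deleted replicates 1 to 4 held 23, 13, 6 and 0 reads against 127 to 239 in the intact libraries. It lost its call without any 1 of the intact libraries, at up to 0.0912, without deleted replicate 3 (0.0613) and with littermates summed (0.0805). Among the 10 neuron markers, edgeR called 3 of 8 tested lower and 0 higher, against 2.80% and 5.10% of all tested genes. The calls were Neurod1 (-3.32, adjusted p = 0.0104), Elavl3 (-2.27, 0.0116) and Elavl4 (-1.5, 0.0444). Map2, Syt1 and Tubb3 were fitted below 0 and not called. Dcx (4.7, edgeR adjusted p = 0.178) and Snap25 (2.1, 0.239) were fitted above 0 and not called. Dcx was at 101 CPM in deleted replicate 2 and 0.127 to 0.329 CPM in deleted replicates 1, 3 and 4. Rbfox3, not tested, was at 0.29 ± 0.216 CPM in intact and 2.98 ± 3.68 CPM in deleted cultures. The part of neurons in the Erbb4 level was not tested. Fgfr1, a fibroblast growth factor receptor gene of progenitors in general, rose from 171 ± 18.1 to 288 ± 27.9 CPM (0.75 ± 0.13, adjusted p = 0.015). That call was lost without intact replicate 1, 2 or 4, at up to 0.0756, with total-count scaling (0.0789) and with littermates summed (0.0631). Inhibitors of differentiation had 0 of 8 called by edgeR and 1, Sox6, called by DESeq2, again beside 16.3% of all tested genes. Ptprz1, a receptor phosphatase gene and the most abundant, was at 583 ± 71.0 and 526 ± 202 CPM (-0.15 ± 0.29, adjusted p = 0.781). Of those 8, 5 were fitted above 0 and 3 below.

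**Figure D3:**
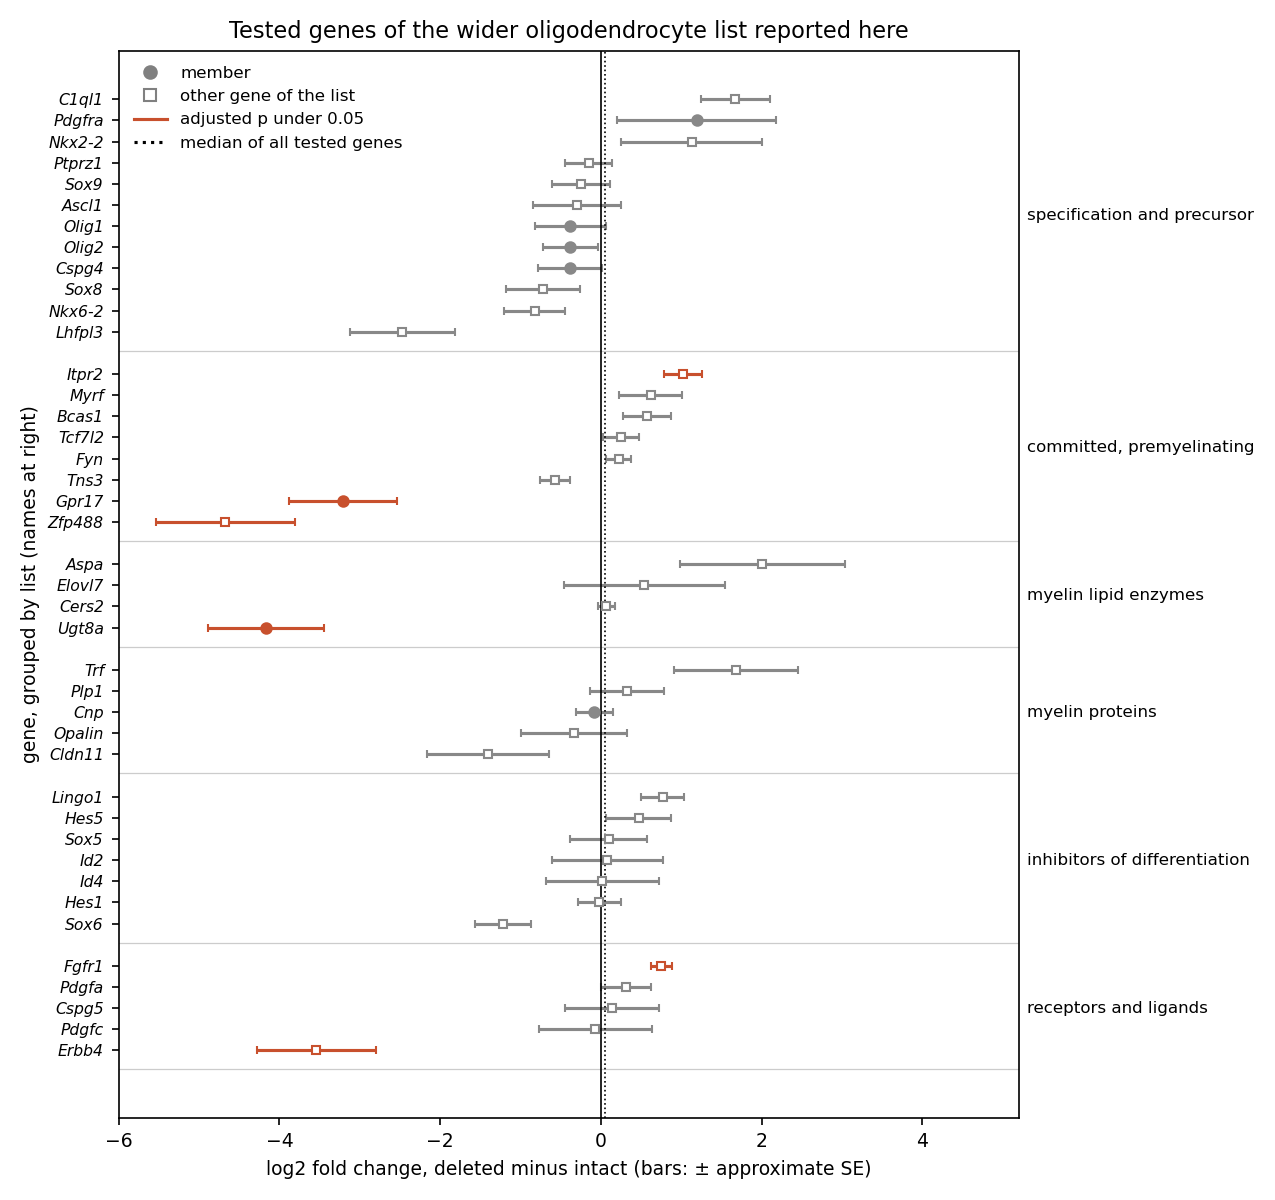
Log2 fold change, deleted minus intact, with approximate SE for tested genes of the 62-gene list that are reported here, grouped by list with members as filled circles, calls in orange and a dotted line at the median of all tested genes (0.05). Ptprz1, in a pair of lists, is drawn once. The 4 lower calls lie between -4.67 and -3.21, and the other genes fall on both sides of 0.

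The genes whose profile over the 8 libraries was closest to each member were found among 10496 genes with at least 5 CPM on average, by the root mean square difference of centred log2 CPM. Closest to Olig1 were Prr18 (0.17), Rftn2 (0.19) and Olig2 (0.19). Closest to Olig2 were Ctnnbip1 (0.13), Kcnd3 (0.14) and Ddah1 (0.14). Prr18, for example, ranged from 38.6 to 45.3 CPM over the intact cultures and was at 45.6, 10.1, 53.6 and 26.8 CPM in deleted replicates 1 to 4.

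Nearest to Cspg4 were Zfp608 (0.23), Nol4l (0.25) and Hipk2 (0.27), and nearest to Cnp were Ncdn (0.09), Tbkbp1 (0.10) and Gnb1 (0.11). Pdgfra had less close neighbours in Fbln2 (0.51), Npl (0.61) and Npepl1 (0.61). Fbln2, the gene of an extracellular matrix fibulin, ranged from 132 to 326 CPM over the intact cultures and was at 31.8, 3009, 204 and 388 CPM in deleted ones, so its highest and lowest libraries were those of Pdgfra. Near Gpr17 were Flrt3 (0.56), Dscam (0.62) and Nnat (0.66), and near Ugt8a were Tspan13 (0.61), Bcat1 (0.67) and Fxyd6 (0.72). Being chosen for their likeness to members called lower on the same libraries, these 6 were lower too, and their calls add no support.

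Taking the deleted cultures one by one, replicate 1 had Olig1, Olig2, Cspg4 and Cnp at or near intact levels, with Pdgfra at 1.33 CPM and Gpr17 at 1 read. Replicate 2 had the lowest Olig1, Olig2, Cspg4 and Cnp of all 8 libraries and the highest Pdgfra and Sox10. Replicate 3 was close to replicate 1 for Olig1, Olig2, Cspg4 and Cnp, and replicate 4 lay between replicates 1 and 2 for the Olig genes. Ugt8a and Gpr17 were below the intact range in all 4.

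**Figure D4:**
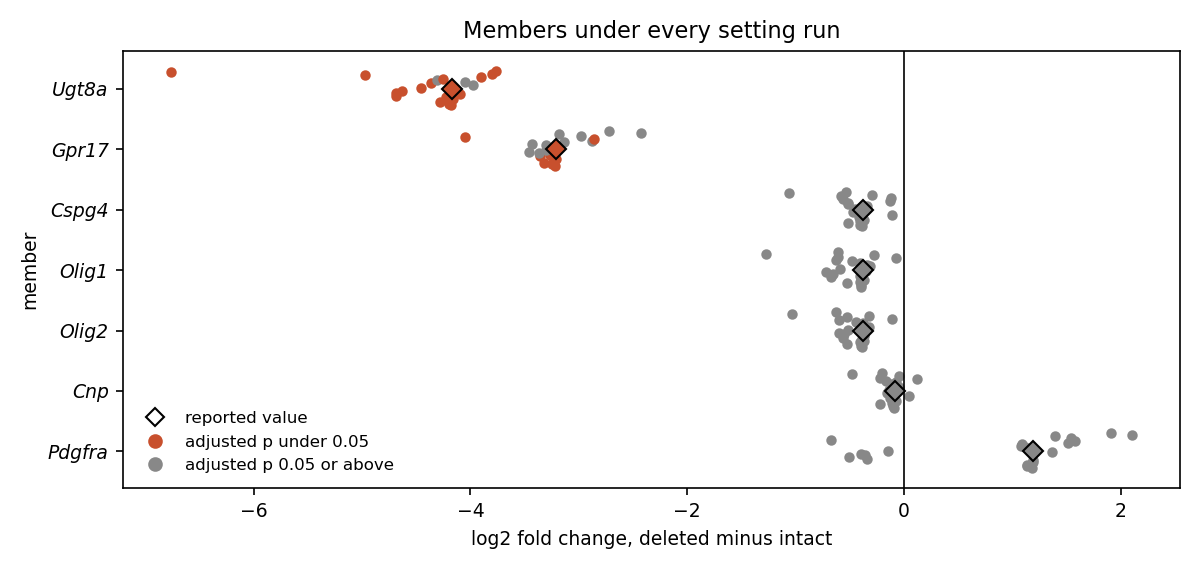
Log2 fold change, deleted minus intact, of each tested member under the reported fit (diamonds) and 23 alternatives (circles), orange where the adjusted p was under 0.05. Ugt8a and Gpr17 stay below 0 throughout with 21 and 12 of 24 settings called, while Pdgfra is below 0 in 6 settings and above it in 18.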

How the data were processed

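RNA of 8 cultures, 4 per genotype and 1 per fetus, was sequenced as 100 bp single-end reads of polyadenylated RNA, per the labels. The authors deposited raw counts per Entrez gene with no normalization. CASAVA 1.8.2, featureCounts and mm10 were used, per the submitters' processing notes. The aligner and strand setting are not given in the sources used here, so reads that overlapping genes share cannot be told apart. Exons overlap those of a gene on the opposite strand for Olig1 (157 bases), Pdgfra (456 and 166), Gpr17 (188) and Cnp (154), in GENCODE M21. The table's gene lengths are other values of the authors, used as deposited. The 8 files per sample equalled the series table.

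Symbols came from RefSeq for GRCm38.p6 (25275 matched). The fit used edgeR 4.0.16 in R 4.3.3, with filterByExpr (minimum count 10), TMM, robust dispersions and the quasi-likelihood F test without covariates. Calls are at adjusted p under 0.05. The SE is approximate, taken as the size of the log2 fold change divided by the root of F. Log2 CPM uses a prior count of 2. Intervals and limits on 0 counts cover counting error only. Alternatives used DESeq2 1.42.0, limma 3.58.1, other scalings and filters, litter, replicate number and left-out libraries. Scripts were tested on simulated data. Intact replicates 1 and 2, and deleted replicates 3 and 4, were littermates treated as independent.

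Members, lists and tests were chosen with earlier results of these data known. Every member was named, then every called gene of the wider list, or the most abundant gene of a stage without calls, plus 3 genes closest in profile to each tested member. A result that this rule would name is not reported here, though counts over lists include it. Neuron markers summed to 1048 to 1094 CPM in intact and 792 to 1226 CPM in deleted cultures, mostly Map2.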

Additional observations from a re-analysis of the deposited data

Results flagged for a closer look

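Pdgfra in intact replicate 4, at 13.3 CPM, stood apart from the other intact libraries at 6.16 to 6.84 CPM. Its gap to the nearest of them on the log2 CPM scale was 0.864 of the group's range, above the 95% critical value of Dixon's test for 4 samples. Both genotypes of 9 members were examined, 18 groups in all, and 1 was flagged, where chance flags about 1 in 20. Intact replicate 4 was also the highest intact library for Cspg4 (90.1 CPM), Gpr17 (4.36 CPM), Sox10 (17 reads) and Mbp (8 reads). Without it the log2 fold change of Pdgfra was 1.51 (edgeR adjusted p = 0.482), against 1.19 with it.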

How the results depend on the processing

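The reported fit called 1066 genes, 688 higher and 378 lower, 2 of the members and 7 of the wider list. With total-count scaling, which moved the median over all tested genes from 0.05 to -0.09 (log2), it was 673 genes (309 higher, 364 lower) and 4 of the wider list. DESeq2 called 2200 genes and 11 of the wider list, and limma-voom with library weights 2307 and 11. With litter as a random block in limma-voom (littermate correlation 0.408) there were 422 genes, 1 member and 4 of the wider list, and with littermates summed 193, 1 and 1. With a variance per genotype 1 member was called, as without the pair of deleted libraries highest in mitochondrial counts. Without the pair with most Kat7 reads there were 2299 of 13797 genes (1160 higher, 1139 lower) and 1 member. Of the wider list 15 of 43 were then called, 3 higher and 12 lower. Leaving out each library in turn gave 189 to 2182 genes, 0 to 2 members and 0 to 9 of the wider list. The lowest gene count came without intact replicate 4 and the highest without deleted replicate 2.

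Pdgfra turned below 0 with limma-voom (-0.34), library weights (-0.51), a variance per genotype (-0.36), litter as a random block (-0.40) and without deleted replicate 2 (-0.67), in a leave-out range of -0.67 to 1.58. Cnp turned above 0 with library weights (0.05) and without deleted replicate 2 (0.12), in a leave-out range of -0.22 to 0.12. The causes were not tested. Olig1, Olig2, Cspg4, Gpr17 and Ugt8a kept a value below 0 in all 24 settings, and the median of the tested members ran from -1.06 to -0.12.

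The reported fit did not pair libraries by replicate number, and no litter was shared between the genotypes. Deviations of same-numbered libraries correlated at 0.0961, 0.221, 0.11 and 0.331, all above 0. Of 8 libraries, 4 correlated best with their own number. What these correlations reflect was not tested. With replicate number as a block there were 319 genes, 1 member (Ugt8a, adjusted p = 0.0396) and 2 of the wider list called, Gpr17, Zfp488, Erbb4, Itpr2 and Fgfr1 were not (adjusted p from 0.055 to 0.0772), and Pdgfra was at -0.15. Depth limits Gpr17, Ugt8a and Zfp488 in the deleted cultures, where 1 read is worth 0.0549 to 0.0918 CPM, and Sox10 and Mbp in both groups.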
